A study of Mus musculus with 7 samples.

Results

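The genes described here are 34 genes of glycolysis and of the response to hypoxia-inducible factor (HIF), out of 28233 genes in the expression table. They were listed by symbol, a choice made with earlier results of these data known, so shares of members set against all genes are descriptions. The list holds 15 glycolytic enzymes, 3 regulators of glycolysis, 3 glucose and lactate transporters, 11 other HIF targets and the 2 HIF alpha subunits Hif1a and Epas1. All 34 symbols were in the table. Car12 had a mean of 0.673 TPM over the tumours and was not tested, and the other 33 passed a minimum mean of 1 TPM, as did 14954 genes in all. TPM is a relative abundance that allows for transcript length.

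RNA was sequenced in bulk from 7 subcutaneous tumours of B16mhgp100, a mouse B16 melanoma line, in C57BL/6 mice. The melanoma cells of 4 tumours (Cr1l 1 to Cr1l 4) over-expressed Cr1l, which encodes the complement regulator Crry, and 3 tumours (Vec 5 to Vec 7) carried the vector. Every mouse of both groups was given anti-PD1, an antibody that blocks an inhibitory T cell receptor, in 4 doses of 200 µg, 2 each week starting on day 10, and tumours were collected 1 day after dosing ended. The comparison sets Cr1l over-expression against vector in treated mice, and no arm without the antibody was among the samples. The promoter of the Cr1l construct, whether the cells were 1 clone, and the age and sex of the mice were not stated in the labels. The titles of Vec 6 and Vec 7 hold a number that is missing from Vec 5, with no stated meaning, and some values are also given without both. Values per tumour follow in the order Cr1l 1 to Cr1l 4, then Vec 5 to Vec 7. Nothing in the labels says more of how the tumours of a group were kept apart than their numbers, so the p-values measure the spread between these samples.

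The Cr1l transcript stood at 76.37, 78.56, 77.91 and 83.57 TPM with Cr1l over-expression and 52.41, 46.29 and 54.94 TPM with vector, a log2 difference of 0.62 (SE 0.11, adjusted p = 0.119 by limma). Its groups did not overlap, and in the authors' deposited table its log2 fold change was 0.57 (adjusted p = 0.00636 by DESeq2). All 9 melanoma markers were present in every tumour, with a summed level of 9193 to 20458 TPM in Cr1l and 13382 to 20792 TPM in Vec tumours, lowest in Cr1l 3 and Cr1l 4. Both had the highest summed levels of 12 macrophage and monocyte markers, at 5921 and 4951 TPM, against 507 to 1544 TPM in the other 5. Vec 6 had the highest summed levels of keratinocyte (886 TPM), skeletal muscle (1842 TPM) and red cell (41285 TPM) markers. The 2 groups were also apart in the share of TPM from the mitochondrial genome, 7.50% to 11.7% in Cr1l (highest in Cr1l 4) and 3.58% to 7.30% in Vec tumours. So were the summed levels of 8 B and plasma cell markers, 170 to 1305 TPM in Cr1l and 9.09 to 33.9 TPM in Vec tumours, with 2 of the 8 (Ms4a1 and Mzb1) at 0 in at least 1 tumour. In bulk tissue, fewer cells of a type and less RNA per cell cannot be told apart.

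Glycolysis splits glucose into pyruvate, and lactate dehydrogenase turns pyruvate into lactate, which leaves the cell through monocarboxylate transporters. HIF is a transcription factor made of an oxygen-sensitive alpha subunit and a stable partner. When oxygen is present, the EGLN prolyl hydroxylases mark the alpha subunit for destruction through the VHL protein, and when oxygen is scarce the subunit persists and binds DNA at sites with the core ACGTG or GCGTG. Many glycolytic enzymes are known HIF targets, and so are genes of acid balance, mitophagy and collagen modification. Since HIF alpha is controlled mainly as a protein, its transcript level is a poor measure of HIF activity, which was not measured here.

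All 3 transporters, all 3 regulators and 7 of 10 other HIF targets tested had higher mean log2 levels in the Cr1l tumours, while the glycolytic enzymes lay close to the level of the Vec tumours. No member passed an adjusted p of 0.05 by limma, where 2 of all 14954 genes did (0.0134%). At an unadjusted p under 0.05, 9 of the 33 members tested were higher in Cr1l tumours and 0 lower, which is 27.3% of the members higher. Over all genes the corresponding shares were 9.49% higher and 6.07% lower, 15.6% in both directions. The 4 Cr1l tumours all lay above the 3 Vec tumours for 6 members (18.2%), and below them for 0, against 9.29% and 6.67% of all genes in those directions. The members' median log2 difference was 0.20, with 24 of 33 above 0 (72.7%), against a median of 0.05 and 55.4% above 0 over all genes. The count of 9 depended on single tumours. Without Cr1l 3 it was 14, without Vec 5 it was 5 and without Vec 6 it was 6, all higher. In those fits 7.79%, 8.89% and 5.04% of all genes were higher. Without Vec 6 and Vec 7 together the members' median difference was 0.24, against -0.03 over all genes. That fit leaves Vec 5 alone in its group, so no count of members is given for it. The count was 9 when the TPM were rescaled without mitochondrial and globin genes, where 11.1% of all genes were higher. The part of the B and plasma cell transcripts was not tested. With median-of-ratios scaling 7 members were under an unadjusted p of 0.05, 6 of them higher, and the shares of all genes turned to 7.86% higher and 9.46% lower.

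**Figure D1:**
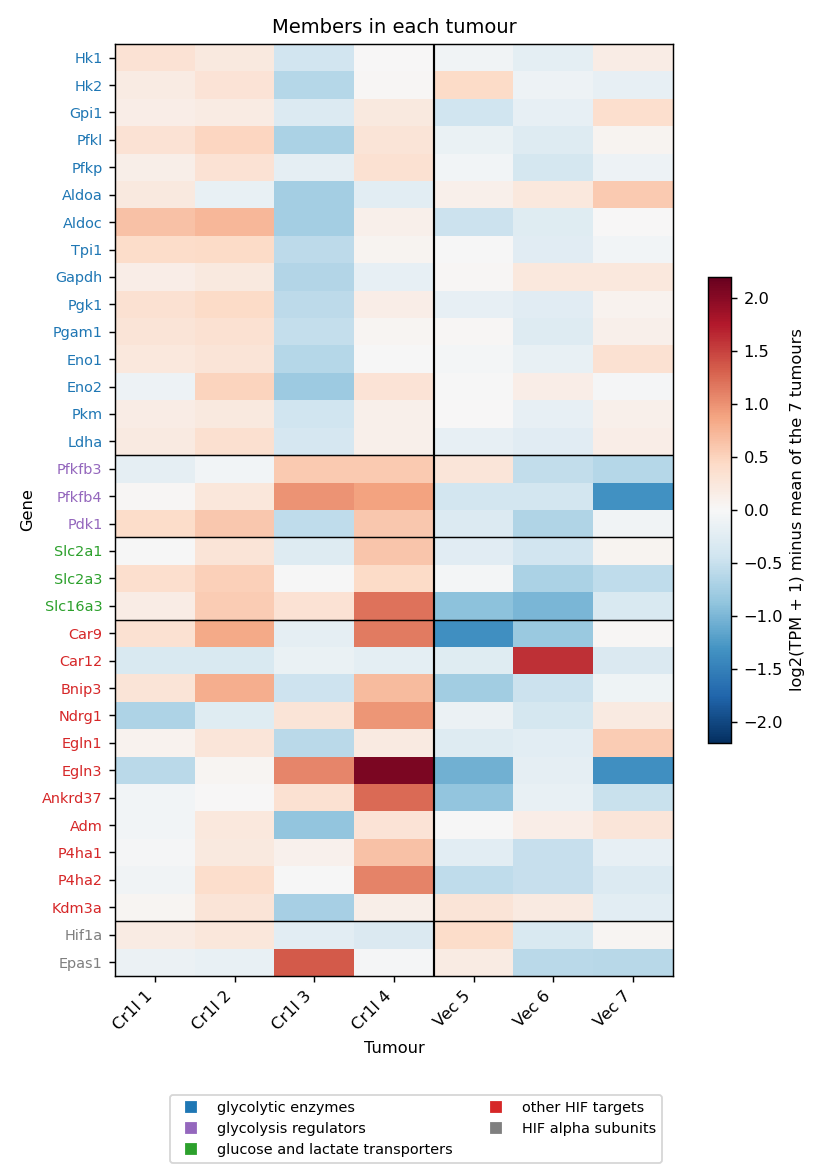
Level of each member (rows, coloured by role) in each of the 7 tumours (columns), as log2(TPM + 1) minus the member's mean over the tumours. Most glycolytic enzymes are lowest in Cr1l 3 (13 of 15), and 7 of the 11 other HIF targets are highest in Cr1l 4.

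Promoter sequences show which of the members carry the letters of the HIF core in the bases next to their start. RefSeq promoters (build GRCm38.p6, 250 bases before to 50 after the start) were found for 31 of the 34 members, with 43 promoters in all, and for 27025 genes in all. ACGTG, read on both strands, occurred in 20 of 31 members (64.5%), against 21.8% of all genes and 29.0% of the 10688 tested genes with a promoter. GCGTG occurred in 19 members (61.3%), against 35.2% of all genes and 54.2% of tested genes. Either core occurred in 27 members (87.1%), against 46.7% and 66.2%. The longer palindrome CACGTG, which contains ACGTG and is the E-box of other factors, occurred in 4 members (12.9%), against 8.09% and 11.4%. By role, ACGTG was found in 9 of 15 enzymes and 7 of 10 other HIF targets, so that both groups held it. A gene was counted if any of its promoters matched, and genes differ in their number of promoters. Counted per promoter, ACGTG was in 43.5% of 23 for the enzymes and 58.3% of 12 for the other HIF targets. Over all members it was in 51.2% of promoters and GCGTG in 53.5%, against 25.0% and 48.6% for tested genes. These matches describe letters in a window, and binding was not measured.

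The 200 bases before the start are printed below for 5 members whose groups did not overlap and for 2 enzymes whose groups did, Ldha and Pgk1. Each is written 5′ to 3′ on the strand of the gene, with ACGTG and GCGTG, or their reverse complements CACGT and CACGC, in capitals. In GRCm38.p6 they lie at chr11:120948867-120949066 (+) for Slc16a3, chr11:54100724-54100923 (+) for P4ha2, chr10:59323096-59323295 (+) for P4ha1, chr8:45999851-46000050 (-) for Ankrd37, chr9:108991702-108991901 (+) for Pfkfb4, chr7:46845604-46845803 (+) for the first of 2 Ldha promoters and chrX:106186900-106187099 (+) for Pgk1.
Slc16a3: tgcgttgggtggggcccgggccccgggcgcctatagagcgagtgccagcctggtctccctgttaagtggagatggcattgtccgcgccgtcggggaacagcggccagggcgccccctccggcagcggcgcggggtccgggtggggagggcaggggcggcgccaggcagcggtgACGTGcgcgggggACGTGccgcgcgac
P4ha2: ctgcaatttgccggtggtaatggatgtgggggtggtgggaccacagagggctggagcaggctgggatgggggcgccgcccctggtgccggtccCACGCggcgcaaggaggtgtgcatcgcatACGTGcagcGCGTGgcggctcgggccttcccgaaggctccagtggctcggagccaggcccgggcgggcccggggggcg
P4ha1: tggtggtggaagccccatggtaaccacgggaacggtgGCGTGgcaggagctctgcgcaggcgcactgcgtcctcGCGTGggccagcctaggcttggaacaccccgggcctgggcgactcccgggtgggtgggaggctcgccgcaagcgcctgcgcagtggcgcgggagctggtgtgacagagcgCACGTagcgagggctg
Ankrd37: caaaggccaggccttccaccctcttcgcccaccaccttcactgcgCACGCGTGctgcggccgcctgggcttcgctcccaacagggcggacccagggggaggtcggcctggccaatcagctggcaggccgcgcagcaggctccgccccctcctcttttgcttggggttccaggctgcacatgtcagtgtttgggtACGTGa
Pfkfb4: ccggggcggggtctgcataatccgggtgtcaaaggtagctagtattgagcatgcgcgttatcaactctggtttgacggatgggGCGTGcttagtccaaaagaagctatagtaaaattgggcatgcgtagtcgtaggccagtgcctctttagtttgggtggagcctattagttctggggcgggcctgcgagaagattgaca
Ldha: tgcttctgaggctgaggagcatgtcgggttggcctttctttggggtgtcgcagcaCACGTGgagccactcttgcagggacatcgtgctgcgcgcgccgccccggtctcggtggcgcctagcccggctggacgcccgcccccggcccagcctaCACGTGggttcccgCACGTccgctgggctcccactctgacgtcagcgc
Pgk1: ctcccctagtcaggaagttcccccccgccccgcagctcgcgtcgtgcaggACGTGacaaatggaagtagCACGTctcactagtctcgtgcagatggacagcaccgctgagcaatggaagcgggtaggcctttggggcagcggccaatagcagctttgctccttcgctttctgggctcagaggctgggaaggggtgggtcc
Slc16a3 had 2 capital runs, the nearer beginning 14 bases before the start. Pfkfb4 had 1 run of GCGTG and no ACGTG in these bases. Ldha had 3 runs, 2 of them the palindrome CACGTG, which none of the 5 members above held, and Pgk1 had 2 runs without it. These 2 enzymes, whose groups overlapped, thus carried ACGTG too, but they do not stand for all enzymes. Tpi1, Gpi1 and Eno2, whose groups also overlapped, had neither core in their promoters.

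Among the transporters, the lactate exporter had the widest difference. Slc16a3, which encodes MCT4, the exporter of lactate in highly glycolytic cells, stood at 104.43, 137.39, 115.96 and 213.14 TPM with Cr1l over-expression and 49.36, 45.95 and 73.75 TPM with vector. Each Cr1l tumour was above each Vec tumour, with Cr1l 4 highest. The group means of 143 ± 48.9 TPM (SD, n = 4) against 56.4 ± 15.2 TPM (SD, n = 3) gave a log2 difference of 1.30 (SE 0.27, adjusted p = 0.139 by limma). It was under an unadjusted p of 0.05 in all 17 alternatives, with differences of 1.09 to 1.51.

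Slc2a3, which encodes the high-affinity glucose transporter GLUT3, stood at 22.39, 24.89, 16.88 and 23.10 TPM against 16.64, 10.10 and 11.30 TPM. The groups did not overlap, but only just, since Cr1l 3 and Vec 5 were nearly level. Its log2 difference was 0.75 (SE 0.21, adjusted p = 0.225 by limma), and it was 0.36 without Vec 6 and Vec 7, the 1 alternative of 17 in which it missed an unadjusted p of 0.05. Slc2a1, which encodes GLUT1, the main glucose transporter of tumour cells, stood at 146.72, 179.86, 120.81 and 224.44 TPM against 123.24, 109.04 and 153.86 TPM. Here Cr1l 3 lay below Vec 5 and Cr1l 1 below Vec 7, and the log2 difference was 0.36 (SE 0.23, adjusted p = 0.450 by limma). GLUT3 made up 9.33% to 13.2% of the TPM of the pair in Cr1l and 6.84% to 11.9% in Vec tumours, so GLUT1 was the more abundant transcript in every tumour. All 3 transporters were lowest in Vec 6.

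The regulators set the pace of glycolysis and the fate of pyruvate. Pfkfb4, a bifunctional enzyme that makes and removes the phosphofructokinase activator fructose 2,6-bisphosphate, stood at 5.68, 6.83, 12.02 and 11.16 TPM with Cr1l over-expression and 3.96, 3.97 and 1.63 TPM with vector. The groups did not overlap, and Cr1l 3 and Cr1l 4, the tumours rich in macrophage markers, were the highest. The group means of 8.92 ± 3.14 TPM (SD, n = 4) against 3.19 ± 1.35 TPM (SD, n = 3) gave a log2 difference of 1.25 (SE 0.34, adjusted p = 0.221 by limma). Without Cr1l 3 and Cr1l 4 the difference was 0.85, not under an unadjusted p of 0.05, and without Vec 6 and Vec 7 it was 0.94. With the macrophage marker mean as a covariate Pfkfb4 stayed under an unadjusted p of 0.05. How far macrophage transcripts set the difference was not tested.

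Pfkfb3, the isozyme that mostly makes the same activator, stood at 26.29, 29.14, 45.84 and 45.77 TPM against 36.73, 20.42 and 19.19 TPM, with Vec 5 inside the range of the Cr1l tumours. Its log2 difference was 0.53 (SE 0.30, adjusted p = 0.403 by limma) and -0.04 without Vec 6 and Vec 7. As a share of the TPM of both isozymes, Pfkfb4 held 17.8%, 19.0%, 20.8% and 19.6% over Cr1l 1 to Cr1l 4, compared with 9.73%, 16.3% and 7.83% over Vec 5 to Vec 7. This share was narrow within the Cr1l group and did not overlap with the Vec group. Pdk1, a kinase that shuts pyruvate out of the mitochondrial citrate cycle, stood at 96.38, 109.55, 48.91 and 109.09 TPM against 58.50, 45.45 and 68.89 TPM. In 3 Cr1l tumours it lay above all Vec tumours, while Cr1l 3 lay among them, and the log2 difference was 0.60 (SE 0.30, adjusted p = 0.365 by limma).

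**Figure D2:**
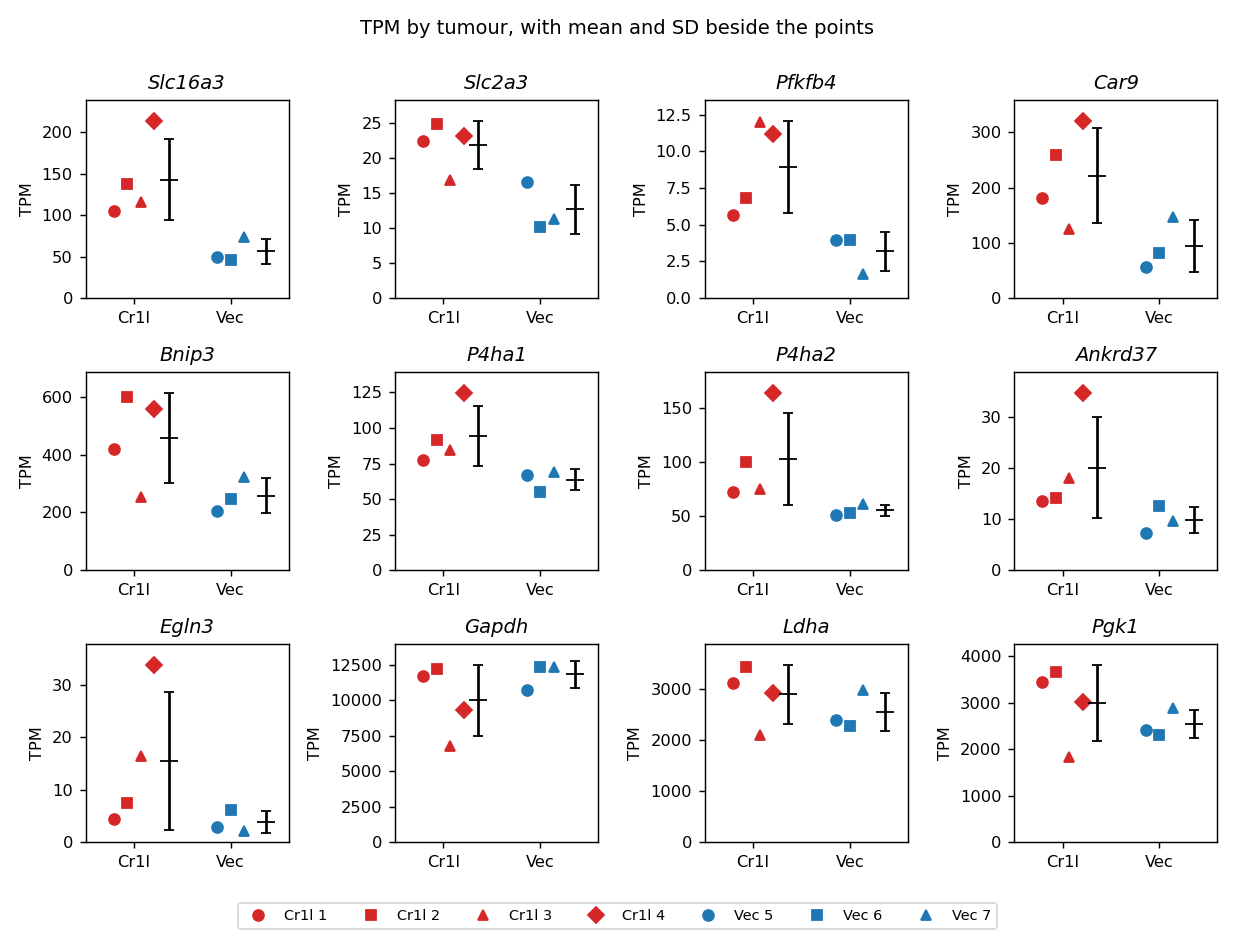
TPM of 12 members in each tumour (points), with the mean and SD of the group beside them and an axis from 0. Slc16a3 separates the groups with its lowest Cr1l tumour at 104.43 and its highest Vec tumour at 73.75 TPM, while Gapdh, Ldha and Pgk1 overlap and are lowest in Cr1l 3.

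The 15 glycolytic enzymes were abundant, and none differed between the groups beyond the spread of the tumours. Their log2 differences ran from -0.54 to 0.43 with a median of 0.08, against 0.05 over all genes, and 10 of 15 were above 0. None of the 15 had groups that did not overlap, which was checked with all 7 tumours only. No enzyme reached an unadjusted p of 0.05 either. This held in 10 of 17 alternatives: Aldoa was lower at that level in 4, Pfkp higher in 1 of those, and 3 to 5 enzymes were higher in the remaining 3. In those 3 fits 7.79% to 9.31% of all genes were higher. In the 4 fits with Aldoa lower, 6.1% to 9.46% of all genes were lower. The enzymes' summed level was 31929, 33426, 18747 and 27405 TPM with Cr1l over-expression and 26586, 26978 and 31216 TPM with vector. Cr1l 1 and Cr1l 2 were thus highest and Cr1l 3 lowest of all 7.

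The first steps, which trap and commit glucose, showed small differences. Hk1, the housekeeping hexokinase, stood at 95.18 to 158.90 TPM in Cr1l and 109.59 to 143.65 TPM in Vec tumours, a log2 difference of 0.07 (95% interval -0.38 to 0.52). Hk2, the inducible hexokinase that is a well-known HIF target, stood at 77.03 to 148.63 TPM against 105.17 to 160.17 TPM, for a log2 difference of -0.07 (95% interval -0.66 to 0.52), and of -0.45 without Vec 6 and Vec 7. Both intervals include 0, with either sign possible. Gpi1, which makes fructose 6-phosphate, stood at 1632.09, 1683.77, 1200.80 and 1717.37 TPM against 1085.34, 1312.46 and 1914.46 TPM, for a log2 difference of 0.14. The phosphofructokinases, which catalyse the committed step, had log2 differences of 0.22 (SE 0.28) for Pfkl and 0.33 (SE 0.17, adjusted p = 0.366 by limma) for Pfkp. Pfkp, the platelet-type subunit, stood at 205.66, 234.20, 163.58 and 238.86 TPM against 180.69, 144.37 and 173.97 TPM, with Cr1l 3 inside the Vec range.

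The most abundant members belonged to the middle and lower steps. Gapdh, the enzyme that yields NADH, stood at 11672, 12194, 6740 and 9290 TPM with Cr1l over-expression and 10730, 12363 and 12356 TPM with vector. Cr1l 3 and Cr1l 4 lay below all Vec tumours, and the log2 difference was -0.28 (SE 0.23, adjusted p = 0.550 by limma). Pgk1, which makes the first ATP of the pathway, stood at 3453.82, 3664.06, 1837.68 and 3023.99 TPM against 2416.28, 2306.86 and 2877.90 TPM. Here the order was different: 3 Cr1l tumours lay above all Vec tumours and Cr1l 3 below them, with a log2 difference of 0.20 (SE 0.25, adjusted p = 0.700 by limma). Tpi1, which interconverts the triose phosphates, had the Cr1l tumours in the same places relative to the Vec tumours, at 3130.62, 3171.05, 1593.55 and 2469.54 TPM against 2347.50, 1991.64 and 2254.90 TPM (log2 difference 0.19, SE 0.25).

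Ldha, the lactate dehydrogenase subunit that favours lactate, stood at 3126.76, 3442.86, 2093.21 and 2931.55 TPM against 2397.43, 2280.66 and 2985.18 TPM. The groups overlapped through Cr1l 3 and Vec 7, and the log2 difference was 0.17 (SE 0.20, adjusted p = 0.683 by limma). Against Ldhb, the subunit that favours pyruvate, Ldha held 83.6%, 86.4%, 87.4% and 91.4% of the pair in Cr1l and 83.6%, 84.1% and 83.8% in Vec tumours. The share was narrow in the Vec group and reached its highest value in Cr1l 4. Pgam1, Eno1, Eno2 and Pkm, the last enzymes before lactate dehydrogenase, had log2 differences of 0.08, -0.07, -0.07 and 0.04. The sign of each of these 4 turned in at least 1 alternative.

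The aldolases had differences of opposite sign. Aldoc, the aldolase of brain, stood at 62.29, 66.33, 23.21 and 42.80 TPM against 28.07, 32.71 and 39.76 TPM, with the largest positive difference of the enzymes (0.43, SE 0.35, adjusted p = 0.551 by limma) and Cr1l 3 below all Vec tumours. Aldoa, the main aldolase, was listed at 59.92 to 118.78 TPM in Cr1l and 109.66 to 152.48 TPM in Vec tumours, a log2 difference of -0.54 (SE 0.23, adjusted p = 0.322 by limma). Its row is 1 of 37 in the table with values beyond 2 decimals and the symbol has 2 identifiers, so it appears to be merged from them, and its level is not comparable with those of the other enzymes. In the authors' deposited table the 2 identifiers had mean normalized counts of 71729 and 12.5, and log2 fold changes of -0.16 and -1.55. Without the Aldoa row, an alternative added after seeing the data, the enzymes' median was 0.11.

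Several enzymes have near-identical copies that could share reads. Pgam1-ps2 was listed at 37.53 to 81.80 TPM, Pgk1-rs7 at 0 to 61.01 TPM and Eno1b at 5.73 to 13.56 TPM, small beside their parents, and no other copy exceeded 3.44 TPM. Hk3, a hexokinase of myeloid cells that is no member, made up 23.4% and 19.0% of the 3 hexokinases in Cr1l 3 and Cr1l 4 and 2.99% to 6.75% in the other 5 tumours.

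**Figure D3:**
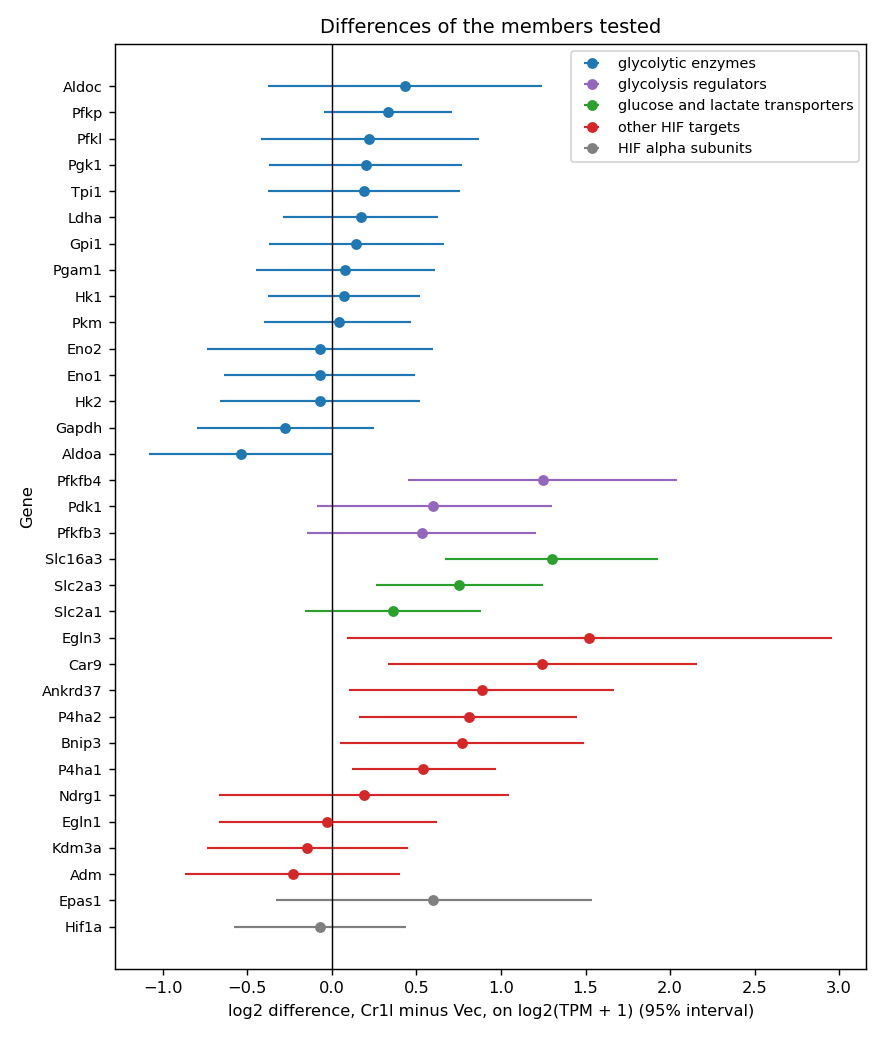
Log2 difference, Cr1l minus Vec, of each of the 33 members tested, on the log2(TPM + 1) scale, with its 95% interval and coloured by role. The enzymes lie around 0 (median 0.08), and the intervals of Slc16a3, Slc2a3, Pfkfb4 and 6 other HIF targets lie above 0 before adjustment.

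The other HIF targets were higher than the enzymes in their differences but uneven. Of 11, 10 were tested, and 7 had a difference above 0. At an unadjusted p under 0.05, 6 were higher (60.0%), against 9.49% of all genes. That count was 1 to 6 over the alternatives: 1 without Vec 5, 2 with the macrophage marker mean as a covariate, and 3 without Vec 6 or with median-of-ratios scaling. In those fits 8.89%, 9.31%, 5.04% and 7.86% of all genes were higher. For 3 of the 10 (30.0%) the groups did not overlap, all with Cr1l higher, against 9.29% of all genes. The 10 had a median log2 difference of 0.66 and a range of -0.23 to 1.52. The median stayed between 0.44 and 0.74 over the 17 alternatives.

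Car9 and Bnip3 are among the best-known HIF targets of tumours. Car9, a carbonic anhydrase on the cell surface that helps to hold the pH of hypoxic cells, stood at 181.72, 258.86, 125.84 and 320.46 TPM against 56.08, 81.56 and 146.38 TPM. Only Cr1l 3 and Vec 7 crossed, and the means of 222 ± 85.5 TPM (SD, n = 4) against 94.7 ± 46.6 TPM (SD, n = 3) gave a log2 difference of 1.24 (SE 0.40, adjusted p = 0.244 by limma). It missed an unadjusted p of 0.05 in 1 of 17 alternatives, without Vec 5, and the difference was 1.88 without Vec 6 and Vec 7. Bnip3, a mitophagy receptor, stood at 419.71, 597.92, 252.16 and 558.19 TPM against 203.53, 247.96 and 322.77 TPM. Again Cr1l 3 alone lay inside the Vec range, and the log2 difference was 0.77 (SE 0.31, adjusted p = 0.301 by limma), under an unadjusted p of 0.05 in 9 of 17 alternatives. Car12, a related carbonic anhydrase, was at 0.16 to 0.32 TPM with Cr1l over-expression and 0.21, 3.43 and 0.17 TPM with vector. Its 1 value above 1 TPM was in Vec 6, where the 5 keratinocyte markers summed to 886 TPM, and their part in it was not tested.

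Both prolyl 4-hydroxylase alpha subunits, which modify collagen in the endoplasmic reticulum, had groups that did not overlap. P4ha1 stood at 77.27, 91.38, 84.57 and 124.61 TPM against 66.89, 55.22 and 69.13 TPM, for a log2 difference of 0.54 (SE 0.18, adjusted p = 0.257 by limma). P4ha2 stood at 71.78, 100.36, 75.33 and 163.73 TPM against 51.32, 53.00 and 61.29 TPM, for a log2 difference of 0.81 (SE 0.28, adjusted p = 0.262 by limma). Both were highest in Cr1l 4 and both lay in Cr1l 3 within the range of the other Cr1l tumours. All 8 fibroblast markers were present in every tumour and summed to 710, 1090, 5934 and 4748 TPM in the Cr1l and 1144, 426 and 137 TPM in the Vec tumours. With the macrophage marker mean as a covariate or without Vec 6 neither P4ha1 nor P4ha2 was under an unadjusted p of 0.05, and the part of fibroblast transcripts was not tested.

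Egln3 and Ankrd37 were high in the 2 tumours with many macrophage transcripts. Egln3, a HIF hydroxylase that is itself a HIF target, stood at 4.46, 7.49, 16.34 and 33.74 TPM against 2.95, 6.20 and 2.21 TPM. The groups overlapped through Cr1l 1 and Vec 6, and the log2 difference of 1.52 (SE 0.62, adjusted p = 0.306 by limma) was 0.60 without Cr1l 3 and Cr1l 4. Its share of the 3 Egln transcripts was 2.93%, 4.49%, 13.0% and 18.1% in the Cr1l tumours and 1.11% to 4.63% in the Vec tumours. Ankrd37, a small ankyrin-repeat protein, stood at 13.48, 14.07, 18.04 and 34.61 TPM against 7.26, 12.49 and 9.69 TPM. Its groups did not overlap, with Cr1l 4 far above the rest, and the log2 difference was 0.89 (SE 0.34, adjusted p = 0.288 by limma) and 0.48 without Cr1l 3 and Cr1l 4. Egln3 was under an unadjusted p of 0.05 in 8 and Ankrd37 in 10 of 17 alternatives. Neither gene was under it with the macrophage marker mean as a covariate, and the part of macrophage transcripts in their levels was not tested.

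The remaining 4 targets had differences nearer 0, none at an unadjusted p under 0.05. Ndrg1, a stress-response protein, stood at 51.02, 68.33, 100.09 and 162.10 TPM against 74.44, 62.21 and 94.54 TPM, with both the lowest and the highest tumour in the Cr1l group and a log2 difference of 0.19 (SE 0.37). Egln1, the main oxygen-sensing HIF hydroxylase, had a log2 difference of -0.03 (95% interval -0.67 to 0.62). Adm, which encodes the vasodilator adrenomedullin, had one of -0.23 (95% interval -0.87 to 0.40), and the histone demethylase Kdm3a had one of -0.15 (95% interval -0.74 to 0.45). Adm and Kdm3a were lowest in Cr1l 3, at 75.34 and 77.58 TPM.

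Neither HIF alpha subunit reached an unadjusted p of 0.05. Hif1a, the broadly expressed subunit, stood at 132.09, 139.36, 99.98 and 93.72 TPM with Cr1l over-expression and 155.77, 92.25 and 120.83 TPM with vector. The groups overlapped fully, and the log2 difference was -0.07 (SE 0.22, 95% interval -0.58 to 0.44, adjusted p = 0.891 by limma). Epas1, which encodes HIF-2 alpha, a subunit prominent in endothelial cells, stood at 15.16, 14.76, 43.65 and 16.36 TPM against 18.94, 10.65 and 10.53 TPM. Only Cr1l 3 stood out, and the log2 difference of 0.60 (SE 0.40, adjusted p = 0.477 by limma) was 0.24 without it and 0.08 without Vec 6 and Vec 7. The 7 endothelial markers summed to 258 TPM in Cr1l 3, against 52.1 to 74.7 TPM in the other Cr1l and 15.4 to 99.4 TPM in the Vec tumours, and their part in the Epas1 level was not tested.

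Set side by side, the enzymes and the other HIF targets had different tumours at their extremes. The enzymes' mean log2 level, centred on the 7 tumours, was 0.24, 0.32, -0.55 and 0.09 in the Cr1l and -0.07, -0.15 and 0.12 in the Vec tumours. That of the 10 other HIF targets tested was -0.08, 0.28, -0.10 and 0.85 against -0.50, -0.29 and -0.16. With Car12 included it was -0.10, 0.22, -0.11 and 0.75 against -0.48, -0.12 and -0.18. Cr1l 1 and Cr1l 3 thus lay close to the Vec tumours, with the lowest Cr1l value at -0.11 and the highest Vec value at -0.12 when Car12 was included. The transporters stood at 0.18, 0.46, 0.01 and 0.74 against -0.40, -0.71 and -0.27. For the regulators the values were 0.08, 0.26, 0.34 and 0.68 against -0.15, -0.54 and -0.68. Transporters and regulators kept the groups apart by more than the other HIF targets did, and the enzymes overlapped. The other HIF targets tested minus the enzymes gave -0.32, -0.04, 0.45 and 0.76 in the Cr1l and -0.43, -0.15 and -0.28 in the Vec tumours, highest in Cr1l 3 and Cr1l 4. In the same 2 tumours the mean centred level of the melanoma markers was -0.72 and -0.60 and that of the macrophage markers 2.12 and 1.85.

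Leaving out Cr1l 3, in which 13 of the 15 enzymes were lowest, moved the enzymes' median from 0.08 to 0.26 and that of the other HIF targets from 0.66 to 0.74. As did leaving out Cr1l 3 and Cr1l 4, it brought 5 of the 15 enzymes under an unadjusted p of 0.05, all higher, namely Aldoc, Pfkl, Pfkp, Pgk1 and Tpi1. Of all genes, 7.79% were higher without Cr1l 3 and 8.55% without both. The adjusted p of the 5 enzymes without Cr1l 3 was 0.275 to 0.363 by limma. With the macrophage marker mean as a covariate the medians were 0.33 and 0.52. In that fit Aldoc, Pgk1 and Tpi1 were higher at an unadjusted p under 0.05, as were 9.31% of all genes. The medians without Cr1l 3 and Cr1l 4 were 0.30 and 0.44. The gap between the lists was smaller in each of these 3 fits, while both medians lay above 0. Without Vec 6 the enzymes' median was -0.02. How far the make-up of the tumours sets the gap was not tested.

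**Figure D4:**
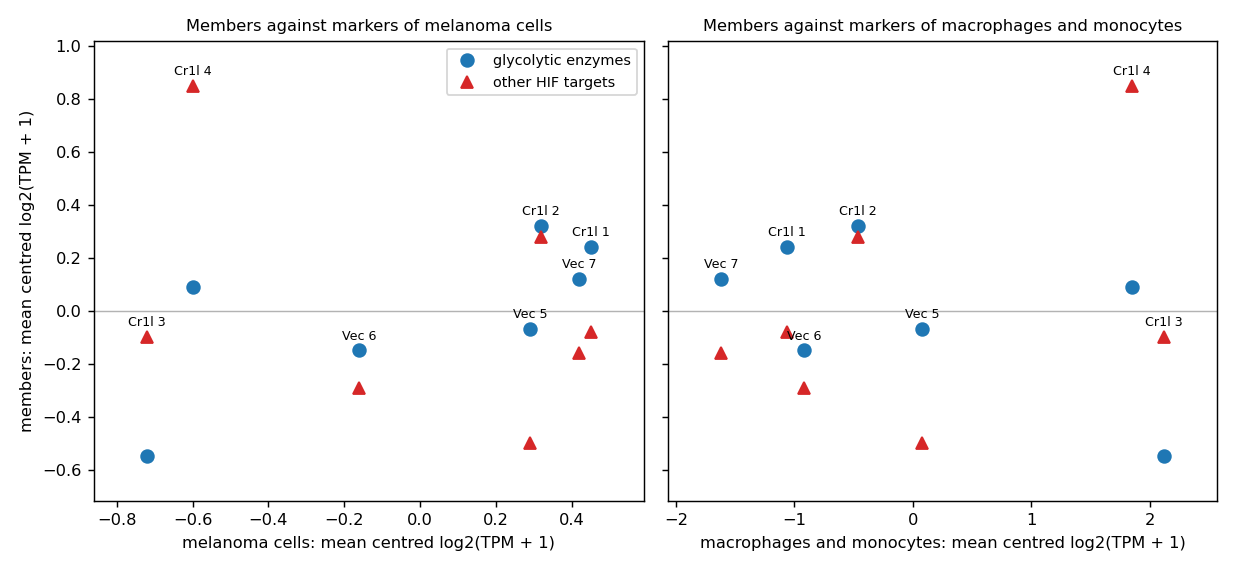
Mean centred log2(TPM + 1) of the 15 enzymes (circles) and of the other HIF targets tested (triangles) in each tumour, against that of the melanoma markers (left) and of the macrophage and monocyte markers (right). Cr1l 3 lies low for the enzymes at -0.55, and Cr1l 4 lies high for the other HIF targets at 0.85, both with few melanoma and many macrophage transcripts.

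Genes of the same pathways that are no members gave no adjusted call by limma either. Of 36 further HIF targets, all tested, 29 had a difference above 0, with 9 higher (25.0%) and 3 lower at an unadjusted p under 0.05, against 9.49% and 6.07% of all genes, and a median log2 difference of 0.42. They included Pygl, the liver-type glycogen phosphorylase, at 17.65, 20.13, 36.16 and 55.27 TPM against 7.23, 4.86 and 7.73 TPM (log2 difference 2.01, adjusted p = 0.125 by limma), with no overlap. Plod2, a collagen lysyl hydroxylase, had a log2 difference of 0.80 (adjusted p = 0.176 by limma), and Vegfa, the angiogenic factor, one of 1.15 (adjusted p = 0.179 by limma). The collagen cross-linking enzyme Loxl2 had one of 1.63 (adjusted p = 0.198 by limma), and of 0.91 without Vec 6 and Vec 7. Sap30, a subunit of a histone deacetylase complex, had one of -0.55 (adjusted p = 0.225 by limma). It is 1 of the 3 lower genes, with Cited2 (-0.86) and Bhlhe40 (-0.60), all named after their values were seen.

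Of 22 other isozymes of glycolysis, 15 were tested and 5 had a difference above 0 (33.3%, against 55.4% of all genes), with a median of -0.26. At an unadjusted p under 0.05, 0 were higher and 3 lower, against 9.49% and 6.07% of all genes. The 3 were Slc2a4, which encodes the insulin-responsive transporter GLUT4 (-0.79, adjusted p = 0.234 by limma), Slc2a6 (-0.92, adjusted p = 0.263 by limma) and Bpgm, which makes 2,3-bisphosphoglycerate (-0.58, adjusted p = 0.307 by limma). Bpgm, abundant in red cells, was highest in Vec 6 at 46.01 TPM, where the red cell markers were highest too, and their part in it was not tested. Without Vec 6 its difference was -0.33, no longer under an unadjusted p of 0.05. Of 10 tested HIF pathway regulators, 0 were higher and 1 was lower at that level, against 9.49% and 6.07% of all genes. It was Elob, a subunit of the VHL complex (-0.32, adjusted p = 0.238 by limma). Of 14 genes of mitochondrial pyruvate entry, 1 was higher and 1 lower (7.14% each), near those shares of all genes. They were the kinase Pdk2 (0.62, adjusted p = 0.293 by limma) and the pyruvate carrier subunit Mpc1 (-0.34, adjusted p = 0.260 by limma). Of 7 pentose phosphate enzymes, Rpe (0.44) and Rpia (0.40) were higher at that level (28.6%, against 9.49% of all genes), each with an adjusted p of 0.318 by limma. Of the genes counted in these last 4 lists, Elob alone stayed under an unadjusted p of 0.05 with each tumour left out in turn.

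The authors' deposited table of their own comparison called 3 members, all higher in Cr1l tumours, of the 32 members that have 1 identifier and an adjusted p. Over all 18297 genes with an adjusted p it called 7.02%, and 4.74% as higher. In the authors' deposited table the log2 fold change of Slc16a3 was 1.29 (adjusted p = 0.00592). Pfkfb4 had 1.44 and 0.0287, and Slc2a3 had 0.74 and 0.0325, in the authors' deposited table. Egln3 (adjusted p = 0.0547) and Car9 (adjusted p = 0.0778) lay just outside its threshold in the authors' deposited table. None of the enzymes was called there. Of the further HIF targets, Vegfa was called in the authors' deposited table, with 1.15 and an adjusted p of 0.0153. Angptl4, Bnip3l, Plin2 and Hilpda were not called, and the rest of these further targets were not looked up there.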

How the data were processed

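RNA was sequenced from 7 tumours, 4 Cr1l and 3 Vec, grouped by the sample labels. Per the labels' protocols, libraries were made from poly-A RNA without strand, so antisense reads cannot be told apart. RSEM, DESeq2 and the mm39 build are named per the submitters' processing notes, and read numbers are not given in those sources. The deposited TPM table holds log2(TPM + 1) per gene, made by the authors. TPM keeps no depth, so no counting error can be given. The sums were 993520 to 996031 TPM per tumour, and 13634 to 15352 genes reached 1 TPM. The authors' deposited DESeq2 table gives, per its header, the signal as a mean normalized count, the log2 fold change and its standard error, and the p-value before and after adjustment. Positive values were read as higher in Cr1l because that gene is positive. Its identifiers were named with a GRCm38 table (27182 of 28369 matched), used for names alone.

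Genes averaging at least 1 TPM (14954) were fitted together with limma 3.58.1 (R 4.3.3) on log2(TPM + 1), group as the 1 term, variance trend on, two-sided p-values adjusted by the Benjamini-Hochberg method over all 14954. Differences are Cr1l minus Vec and understate changes of low genes. The fit was tested on simulated data. Promoters are RefSeq's on GRCm38.p6, a build other than the authors' own.

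The members, gene lists and marker lists were chosen with earlier results of these data known. Values per tumour are given for members whose groups do not overlap, members past an unadjusted p of 0.05 and both HIF alpha subunits, and for other members where a sentence turns on them. Outside the members, the rule names up to 4 genes per list with the smallest p and Vegfa, and Sap30, Cited2 and Bhlhe40 were named after their values were seen. Hk3, Ldhb and the near-identical copies are given as isozymes or copies. The alternatives were another pseudocount (0.1), another or no filter, no variance trend, tumour weights, 2 scalings, a macrophage covariate and leaving out tumours. The deposited repertoire table was not used here.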

Additional observations from a re-analysis of the deposited data

Results flagged for a closer look

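Among the 39 groups of 4 Cr1l tumours checked for a tumour far from the others, 5 had 1, where chance gives about 1 in 20 groups. The groups all hold the same 4 tumours and are not independent, so the 5 do not measure an excess over chance. The gap to the nearest tumour, as a share of the group's range of log2 values, was above Dixon's 95% critical value for 4 samples. In each case the tumour was Cr1l 3. It was low for Gpi1 (0.858, at 1200.80 TPM), Pfkl (0.843, at 139.64 TPM), Pkm (0.841, at 1818.07 TPM) and Pdk1 (0.84, at 48.91 TPM). It was high for Epas1 (0.907, at 43.65 TPM). The same tumour had the lowest summed level of melanoma markers (9193 TPM) and the highest of macrophage (5921 TPM), fibroblast (5934 TPM) and endothelial (258 TPM) markers, and their part in these levels was not tested.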

How the results depend on the processing

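Over 17 alternatives no member passed an adjusted p of 0.05 by limma, and the smallest adjusted p of any member was 0.128 (Slc16a3). Of the single-gene values 857 kept their sign and 43 turned it, none of them past the threshold. The count of 2 called genes over all genes became 6 with a pseudocount of 0.1, 0 with no filter, 1 with a mean of at least 5 TPM, 13 with no variance trend, 14 with tumour weights (whose fit gave a convergence warning), 10 with median-of-ratios scaling, 4 when rescaled without mitochondrial and globin genes, 5 with the macrophage covariate, 6 without Vec 6 and Vec 7, 0 without Cr1l 3 and Cr1l 4, and 0 to 7 leaving out 1 tumour each. The members at an unadjusted p under 0.05 numbered 5 to 14 leaving out 1 tumour each. In these fits 5.04% to 11.8% of all genes were higher and 4.04% to 6.49% lower. A fit without Vec 6 and Vec 7 assumes that Vec 5 varies like the Cr1l tumours. Leaving out Cr1l 3 and Cr1l 4 together, and leaving out the Aldoa row, were chosen after seeing the data. The cause of these moves was not tested.

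Signs turned as follows. Tumour weights gave Hk2 0.05 and Eno2 0.06, median-of-ratios scaling Pkm -0.02 and rescaling Egln1 0.00. The macrophage covariate gave Hk2 0.09, Gapdh 0.01, Eno1 0.23, Eno2 0.11, Ndrg1 -0.24, Egln1 0.24 and Hif1a 0.08. Without Vec 6 and Vec 7, Eno1 was 0.01, Pfkfb3 -0.04 and Egln1 0.27. Without Cr1l 3 and Cr1l 4, Hk2 was 0.21, Gapdh 0.02, Eno1 0.21, Eno2 0.15, Ndrg1 -0.36, Egln1 0.16, Kdm3a 0.08 and Hif1a 0.17. Leaving out 1 tumour each gave ranges of -0.02 to 0.22 for Hk1, -0.18 to 0.13 for Hk2, -0.04 to 0.37 for Gpi1, -0.04 to 0.27 for Pgam1, -0.18 to 0.12 for Eno1, -0.24 to 0.19 for Eno2, -0.05 to 0.19 for Pkm, -0.11 to 0.44 for Ndrg1, -0.18 to 0.24 for Egln1, -0.37 to 0.02 for Adm, -0.31 to 0.07 for Kdm3a and -0.26 to 0.12 for Hif1a. No paired analysis was possible because the groups share no replicate numbers. Without read numbers, differences of low members such as Car12 and Pfkfb4 cannot be set against counting error.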
